A study of Mus musculus with 366 samples.

Results

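The matrix proteoglycans of the artery wall were read in the aortas of Ath-HMDP mice through 10 genes: Dcn (decorin), Bgn (biglycan), Aspn (asporin), Lum (lumican), Fmod (fibromodulin), Prelp, Omd (osteomodulin), Ogn (osteoglycin, or mimecan), Vcan (versican) and Hspg2 (perlecan). All 10 were found by the platform's gene symbol among the 17097 genes with a probe set of their own. They have 19 of the 45141 probe sets, and for each gene the probe set of highest mean is used. The Ath-HMDP panel, made to map the genetics of atherosclerosis, consists of F1 mice whose C57BL/6J parent brings 2 human transgenes, APOE-Leiden and CETP, and whose other parent is of an inbred strain. The deposited arrays cover 366 aortas of females from 101 strains. Every mouse therefore carried both transgenes and a set of C57BL/6J chromosomes, and the strain named is the other parent. In the C57BL/6J group both parents were C57BL/6J. All mice were fed chow to 8 weeks of age and a Western diet for the following 16 weeks, and aortas were taken at 24 weeks, so there was no group on chow or without the transgenes. The strains fall into 5 families. The recombinant inbred sets are BXD (36 strains, from C57BL/6J and DBA/2J), AXB/BXA (21, from A/J and C57BL/6J), CXB (9, from BALB/cByJ and C57BL/6J) and BXH (4, from C57BL/6J and C3H/HeJ), and 31 are classical inbred strains.

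Small leucine-rich proteoglycans are secreted proteins that bind collagen fibrils and set their thickness and spacing, and several of them also hold growth factors of the TGF-beta family. Versican is a large chondroitin sulfate proteoglycan that binds hyaluronan, and perlecan is the heparan sulfate proteoglycan of basement membranes. In arteries the sugar chains of such proteoglycans bind apolipoprotein B, and their part in the retention of lipoproteins in the intima is a long-standing topic of atherosclerosis research. In bulk tissue, fewer cells of a type and less RNA per cell cannot be told apart.

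Values are log2 intensities normalized by RMA. The median of an array lay between 3.17 and 3.4, 87 strains have 3 or more arrays, 8 strains have 2 and 6 have 1. The smooth muscle actin gene Acta2 was at least 8.37 on every array, with a median of 12.05, but other markers of the list were dim on the lowest arrays, where Myh11 read 4.58, Cnn1 2.95 and Myocd 2.23. The mean level of 10 smooth muscle markers ran from 5.51 to 10.13 with a median of 8.46, and 103 arrays, from 51 strains, lay over 1 log2 unit below that median. The 14 fibroblast markers ran from 6.78 to 8.28 in the mean, although the defining marker Pdgfra was dim (median 3.38). The mean level of the 9 adipocyte markers was high on every array (9.70 to 10.80), with the brown fat uncoupling protein gene Ucp1 at 12.33 to 13.20, although the tissue had been cleaned of surrounding fat; of the same list Pnpla2 (median 4.35) and Lep (4.66) were dim. The 15 striated muscle markers ranged from 3.55 to 12.05, and the 13 hepatocyte markers were over 1 unit above their median on 13 arrays. The 14 cartilage markers, whose tissue shares several of these proteoglycans, stayed between 2.90 and 3.47.

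Members of the group are neighbours in the genome. On chromosome 13 of GRCm38.p6, Aspn (49544443 to 49567565), Omd (49582462 to 49592612) and Ogn (49608015 to 49624501) follow Ecm2, with no other protein-coding start between them, and lie within the span of Cenpp. Dcn and Lum adjoin on chromosome 10 (97479500 to 97518163 and 97565501 to 97572703), and Prelp and Fmod on chromosome 1 (133910304 to 133930102 and 134037254 to 134048280). Vcan lies elsewhere on chromosome 13 (89655309 to 89743027), Hspg2 on chromosome 4 (137468751 to 137570630) and Bgn on X (73483601 to 73495936). RefSeq promoter sequences were available for 8 of the 10 members, not for Dcn and Lum. The 250 bases before the annotated start are shown for 3 of them, because Bgn and Ogn moved together across strains although they lie on different chromosomes, and Omd is the member next to Ogn. Bgn is read on the plus strand at chrX:73483351-73483600, Omd on the plus strand at chr13:49582212-49582461 and Ogn on the plus strand at chr13:49607765-49608014.
Bgn: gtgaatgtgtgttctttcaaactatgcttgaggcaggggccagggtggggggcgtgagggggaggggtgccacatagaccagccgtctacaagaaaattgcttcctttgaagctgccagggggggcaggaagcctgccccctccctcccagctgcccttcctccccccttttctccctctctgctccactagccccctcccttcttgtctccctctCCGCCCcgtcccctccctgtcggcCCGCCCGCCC
Ogn: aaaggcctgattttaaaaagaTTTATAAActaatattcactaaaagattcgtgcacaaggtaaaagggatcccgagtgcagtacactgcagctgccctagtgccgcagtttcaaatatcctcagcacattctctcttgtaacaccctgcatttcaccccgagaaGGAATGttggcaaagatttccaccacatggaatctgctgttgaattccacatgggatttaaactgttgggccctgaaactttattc
Omd: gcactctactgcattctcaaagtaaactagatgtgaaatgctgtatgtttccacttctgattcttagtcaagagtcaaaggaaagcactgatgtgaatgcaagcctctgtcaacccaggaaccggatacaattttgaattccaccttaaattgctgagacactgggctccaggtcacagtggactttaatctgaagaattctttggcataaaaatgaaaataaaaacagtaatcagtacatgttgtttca
Capitals mark matches, on either strand, to the GC box GGGCGG, to TATAAA or to GGAATG, the core bound by TEAD factors. Bgn had 3 GC boxes within its last 34 bases, the last pair of which overlap, and no GC box was matched in Ogn or Omd. Ogn had a GGAATG starting 86 bases before its start, and TATAAA on both strands, overlapping, at 229 and 227 bases before it. No motif of the search was matched in Omd. Over all 32851 promoters of the table, these 250 bases held GGGCGG in 32.7%, TATAAA in 12.4% and GGAATG in 12.6%. The CArG box, searched because serum response factor binds it in smooth muscle genes, was in 1.47% of all promoters and in none of the 8 member promoters, and TGANTCA (AP-1) was in 6.75% and in none of the 8.

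All 10 members differed among strains, and they did so by very different amounts. In limma's F test over 95 strains with 2 or more arrays (360 arrays), every member passed an adjusted p of 0.05, but so did 77% of all probe sets, and 97.4% of the 15751 probe sets with a mean at least that of the dimmest member. The count is therefore near its background, and the sizes are the part that separates the members from each other. The share of variance that lay among strains (intraclass correlation) ran from 14.8% for Omd to 48.1% for Prelp. Its median was 33.5% over the members and 20.8% over all 17097 genes. No median over genes as bright as the members is given here, and 4 lists of related genes had medians of 24.9% to 39.1%. The higher median is therefore not read as a trait of the members. Because each strain's mice may also share a batch, which the labels do not give, strain and batch cannot be told apart. Levels of different probe sets are not compared here, since a probe set's brightness depends on its probes.

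Among the class I small leucine-rich proteoglycans, decorin was the steadiest member in log2 units. Dcn, which binds along collagen fibrils and limits their width, ran from 11.09 over a median of 11.71 to 12.37 on single arrays and from 11.16 to 11.93 in strain means. Its strain means had an SD of 0.15, against an SD of 0.18 among mice of a strain. Bgn, the closest relative of decorin, was not so: its arrays ran from 8.71 over 10.56 to 12.22, its strain means from 9.12 to 11.79 (SD 0.56, against 0.52 among mice), and 47.9% of its variance lay among strains (F = 4.53, adjusted p = 3.9e-21). Between the lowest and the highest of the 87 strains with 3 or more arrays, Dcn spanned 1.5-fold and Bgn 6.36-fold. As a share of its variance, 22.9% lay among strains for Dcn. The Dcn probe set was brighter in the mean than 99.3% of all probe sets, and whether its range is compressed there was not tested. Aspn, which has a run of aspartates in place of sugar chains, had arrays from 4.54 over 6.13 to 7.77 and strain means from 4.95 to 7.12, with 23.9% of variance among strains.

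The class II members showed the same spread of behaviours. Lum, known for its part in corneal transparency and collagen assembly, ran from 7.54 over 8.92 to 10.13 on arrays (33.8% among strains), and Fmod, which guides collagen cross-linking, from 4.23 over 5.73 to 7.57 (20.1%). Prelp, an arginine- and proline-rich protein that links matrix to basement membrane, ran from 8.92 over 10.12 to 10.83, with strain means from 9.23 to 10.76. It had the largest share among strains of the 10 (48.1%, F = 4.54, adjusted p = 3.6e-21), and its second probe set had 51.8%. Omd, best known from bone, had the smallest, with arrays from 3.19 over 4.46 to 6.02 (14.8%, F = 1.68, adjusted p = 0.0012). Ogn, the class III member, ran from 8.14 over 9.50 to 11.06 (33.1%).

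The large proteoglycans differed between themselves in range. In the probe sets used, Vcan had the widest strain means of the 10, from 3.80 to 7.45, a 12.6-fold span, with arrays from 2.94 over 5.26 to 8.03 and 38.4% of variance among strains. Hspg2 ran from 5.79 over 6.82 to 8.01 on arrays, its strain means spanned 2.85-fold among strains with 3 or more arrays, and 42.8% of its variance lay among strains. Other probe sets of a gene ranked the strains similarly for Bgn (r = 0.986 over the 101 strain means), Ogn (0.900), Aspn (0.877) and Prelp (0.854), less so for Hspg2 (0.652). For Vcan, 2 further probe sets followed it (0.832 and 0.860) and 2 dim ones, with means of 2.79 and 2.56, did not (-0.161 and -0.047). The 2 that followed spanned only 2.45 and 2.43 log2 units in strain means, against 3.65 in the one used, with 21.9% and 19.9% of variance among strains. Bgn spanned 2.67, and 3.09 in its second probe set, so the first rank of Vcan in range rests on the probe set used.

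**Figure D1:**
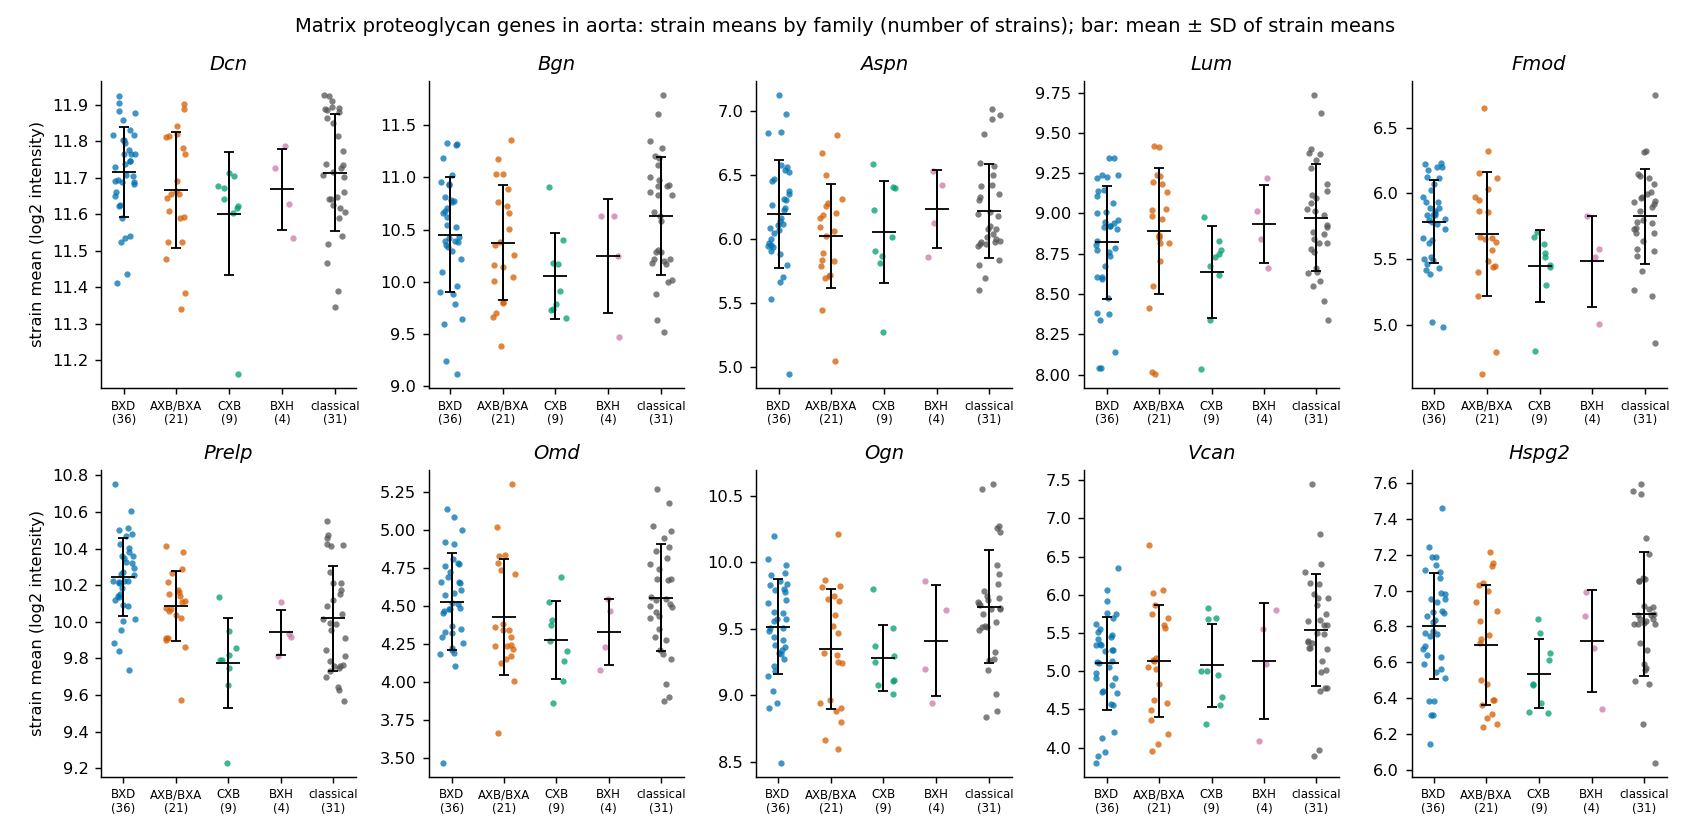
Strain means of the 10 members by family. Each point is the mean log2 intensity of a strain's arrays (number of strains in parentheses), and black bars are the mean ± SD of the strain means in a family; axes differ between panels and do not start at 0. For Prelp, the BXD strains centre on 10.24 (9.74 to 10.76) and the CXB strains on 9.78 (9.23 to 10.14), so they overlap there too. For the other members the families overlap broadly.

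A few strains took the end places again and again. Among strains with 3 or more arrays, the LG/J F1 was highest for Bgn (11.51, 11.65, 11.89 and 12.10 on its 4 arrays), for Vcan (7.0, 7.26, 7.53 and 8.03), for Ogn (mean 10.59) and for Hspg2 (mean 7.55). The BTBR T<+> tf/J F1 was among the 3 highest for 5 members: Dcn, Lum, Ogn, Aspn and Vcan, with Lum at 9.25, 9.46, 9.66 and 10.13. At the other end the BXD75/RwwJ F1 was among the 3 lowest for 6 members, with Bgn at 8.71, 9.10, 9.23 and 9.43 and Vcan at 3.45, 3.81, 3.84 and 4.12. The BXA16/PgnJ F1 was among the 3 lowest for 6 members as well, and its 3 Fmod arrays read 4.23, 4.60 and 5.04. These strains also stood apart in smooth muscle markers: their mean level was 9.80 in LG/J and 9.17 in BTBR T<+> tf/J, against 6.56 in BXD75/RwwJ and 7.03 in BXA16/PgnJ. Prelp had other extremes. Its highest strains were BXD44/RwwJ (10.65, 10.75, 10.80 and 10.82), BXD87/RwwJ (mean 10.60) and SM/J (mean 10.55), its lowest were CXB8/HiAJ (8.99, 9.19, 9.24 and 9.50), SJL/J (mean 9.57) and AXB15/PgnJ (mean 9.57). The smooth muscle marker level of the highest was 8.56, 9.04 and 8.93, and that of the lowest 8.42, 8.71 and 7.17. The end places were picked by level and carry no test.

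Within single families, more members were called in the large sets, where more of all probe sets were called too. All 10 passed the F test among the 31 classical strains (62.7% of all probe sets did) and among the 19 AXB/BXA strains with 2 or more arrays (44.3%), and 9 passed among the 33 BXD strains (54.1%), with Omd at an adjusted p of 0.084. Of the 8 CXB strains only Prelp was called (F = 4.22, adjusted p = 0.0027; 22.8% of all probe sets), and of the 4 BXH strains Bgn and Vcan were, each with an adjusted p of 0.045 (10.1%). By unadjusted p, 3 members were under 0.05 among the CXB strains (35.9% of all probe sets) and 4 among the BXH strains (25.8%). The small sets rest on few mice: when the mice of 1 replicate number were left out in turn, the CXB count ran from 0 to 2, the BXH count from 0 to 1 the AXB/BXA count from 6 to 10 and the BXD count from 6 to 9, both of the latter at 6 without the mice numbered 3. With the smooth muscle and fibroblast scores as covariates, 4 members were called among the AXB/BXA and 5 among the BXD strains. The share of all probe sets called in those covariate fits is not given here, so the lower counts are not read as a trait of the members.

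The F1 of the 4 progenitors of the recombinant sets were each compared with the C57BL/6J F1, which is the same 6 arrays in all 4 comparisons. In the A/J F1, decorin and fibromodulin were lower. Each of these genes has a single probe set, so no other probe set checks these differences. Dcn read 11.31, 11.35 and 11.38 in A/J, against 11.39, 11.72, 11.72, 11.75, 11.88 and 11.95 in C57BL/6J, and fell by 0.39 (SE 0.10, adjusted p = 0.029 by limma, n = 3 and 6). Fmod read 4.60, 4.66 and 5.33, against 5.40, 5.50, 5.70, 6.03, 6.12 and 6.43, and fell by 1.0 (SE 0.26, adjusted p = 0.023). For neither gene did the groups overlap, though for Dcn the gap between them was small; arrays of A/J and C57BL/6J did not overlap for 9.47% of all probe sets, and 4.86% of all probe sets were called (3.63% as lower in A/J). The exact permutation p was 0.012 for each gene. Both calls were lost without A/J replicate 2 (adjusted p = 0.10 for Dcn and 0.11 for Fmod) and without A/J replicate 3 (0.088 and 0.12), and Dcn's alone without A/J replicate 1 (0.074), C57BL/6J replicate 1 (0.061) or C57BL/6J replicate 6 (0.060). The fibroblast markers were also lower in A/J, with mean levels of 6.78, 6.96 and 7.07 against 7.23 to 7.91 in C57BL/6J.

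In the C3H/HeJ F1, biglycan and perlecan were higher. Bgn had a lowest, median and highest array of 10.32, 10.88 and 11.41 in C3H/HeJ and of 9.52, 9.77 and 10.46 in C57BL/6J, a difference of 0.95 (SE 0.19, adjusted p = 0.0022, n = 8 and 6), and its second probe set differed by 1.16. Only the ends of the groups overlapped for Bgn. Hspg2 had a lowest, median and highest array of 6.72, 7.12 and 7.32 in C3H/HeJ and of 6.09, 6.61 and 6.90 in C57BL/6J, a difference of 0.49 (SE 0.13, adjusted p = 0.015), but its second, dimmer probe set differed by 0.08, so the probe sets disagree on perlecan. Of all probe sets, 8.85% were called in this comparison (3.86% as higher in C3H/HeJ). Hspg2 missed the threshold without C57BL/6J replicate 2 (0.39, adjusted p = 0.052) and as the mean of its probe sets (0.28, adjusted p = 0.088). In the BALB/cJ F1 no member was called by limma (7.08% of all probe sets were), and 2 had an unadjusted p under 0.05 (21.1%). By the exact permutation test, 3 members (Bgn, Omd and Vcan) had an unadjusted p under 0.05, a count without a share of all probe sets beside it. Bgn read 10.35, 10.36, 10.72 and 10.90 there (difference 0.70, SE 0.23, adjusted p = 0.062) and Vcan 5.20, 5.82, 6.11 and 6.31 (difference 1.07, SE 0.38, adjusted p = 0.090), against 4.06, 4.45, 4.61, 4.81, 5.24 and 5.55 for Vcan in C57BL/6J. Bgn in BALB/cJ crossed the threshold when any of 4 single arrays was left out, at an adjusted p of 0.028 without C57BL/6J replicate 5.

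The DBA/2J F1 stood out in a single member, Prelp. Its arrays read 10.35, 10.39, 10.47, 10.51 and 10.64, against 9.34, 9.50, 9.56, 9.98, 10.03 and 10.18 in C57BL/6J, so the groups did not overlap (4.07% of all probe sets do not). The difference was 0.71 (SE 0.17, adjusted p = 0.015 by limma, exact permutation p = 0.0043, n = 5 and 6), and the second probe set, at 7.69 to 7.84 against 6.28 to 7.28, differed by 0.78. In all, 3.53% of probe sets were called (1.32% as higher in DBA/2J). No single array decided this call, since Prelp was called in all 26 fits that left out an array.

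Marker levels moved with several of these differences, since the C57BL/6J arrays had the lowest mean of the 5 groups in smooth muscle markers. The mean smooth muscle level of the C57BL/6J arrays was 5.89, 6.02, 7.09, 7.09, 7.90 and 8.38, against 8.26, 8.66 and 8.77 in A/J, 8.51 to 9.16 in BALB/cJ, 8.02 to 9.42 in C3H/HeJ and 7.23 to 8.56 in DBA/2J. With the smooth muscle and fibroblast scores of each array as covariates, Bgn in C3H/HeJ differed by 0.31 (adjusted p = 0.27), Hspg2 by 0.16 (0.73), Dcn in A/J by -0.09 (0.82), Fmod by -0.19 (0.86) and Prelp in DBA/2J by 0.46 (0.19), so none of the 5 calls was kept. Of all probe sets, the share called went from 4.86% to 0.886% in A/J with these covariates. It went from 8.85% to 1.86% in C3H/HeJ and from 3.53% to 4.84% in DBA/2J. Prelp in DBA/2J was called under the other 34 of its 35 alternatives. Striated muscle markers spread widely in each group, from 6.86 to 10.44 in C57BL/6J and from 5.34 to 11.95 in A/J, and with the adipocyte, striated muscle, hepatocyte and cartilage scores as covariates Dcn in A/J had an adjusted p of 0.096. What part the tissue makeup has in these differences was not tested.

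**Figure D2:**
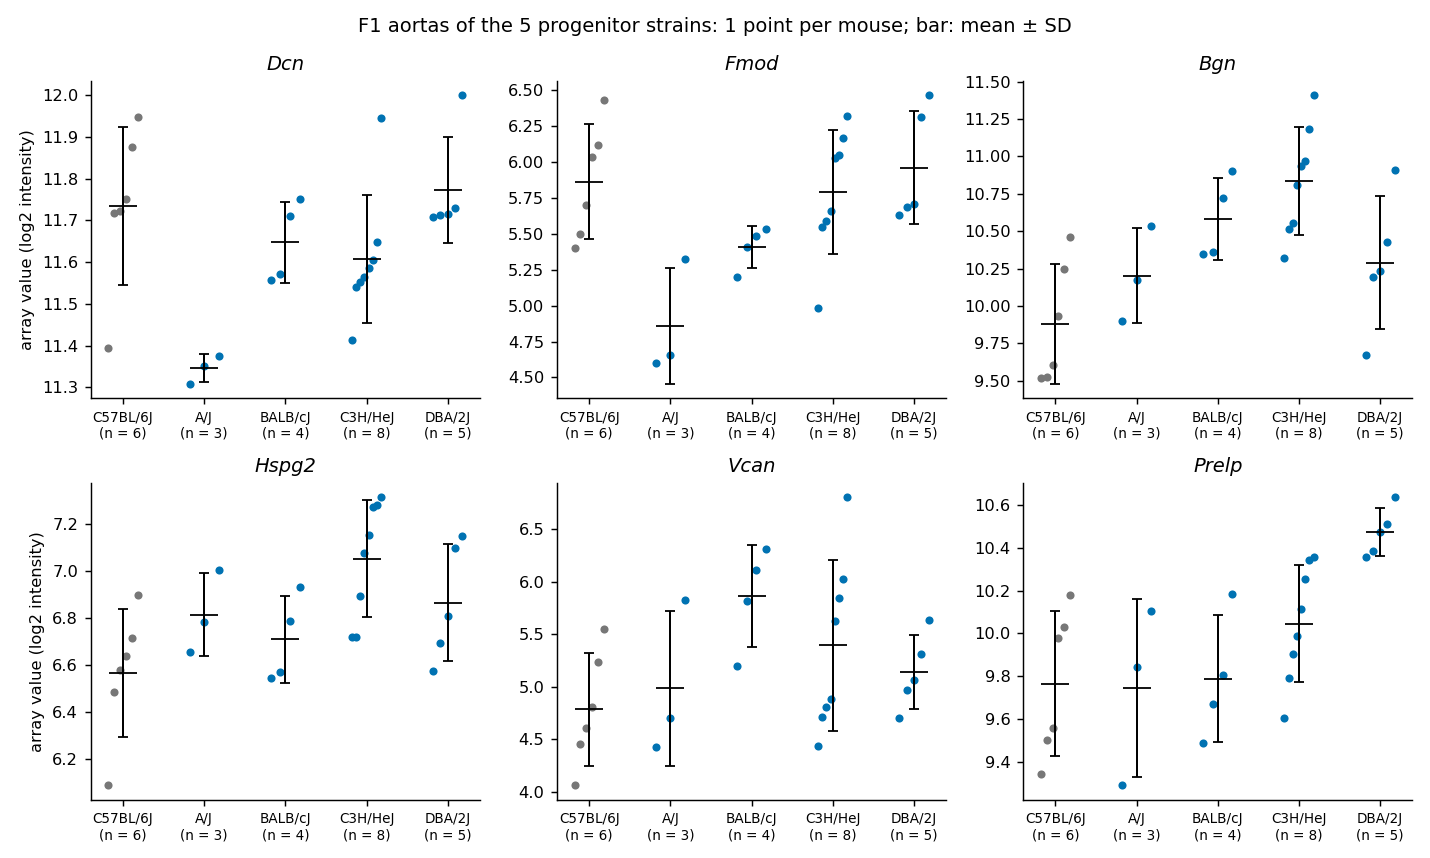
Log2 intensity of 6 members on each array of the F1 of the 5 progenitor strains; each point is a mouse, drawn in order of its value, and bars are mean ± SD. The A/J points of Dcn and Fmod lie below all C57BL/6J points, and the DBA/2J points of Prelp (10.35 to 10.64) lie above all of them.

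Prelp was also the only member that differed among the 5 families (F = 9.12 over strain means, adjusted p = 0.00038; 8.09% of all probe sets, and 15.6% of those as bright as the members, were called). The strain means averaged 10.24 ± 0.21 (SD) in 36 BXD strains, 10.09 ± 0.19 in 21 AXB/BXA, 10.02 ± 0.29 in 31 classical, 9.94 ± 0.12 in 4 BXH and 9.78 ± 0.25 in 9 CXB strains. Families next to each other in this order were not separated by the test of their pair: BXD and AXB/BXA differed by 0.16 (adjusted p = 0.26; 1.92% of all probe sets were called), AXB/BXA and classical strains by 0.07 (0.64). BXD exceeded CXB by 0.47 (SE 0.09, adjusted p = 0.00068; 1.65% of all probe sets were called in that pair) and the classical strains by 0.22 (SE 0.06, adjusted p = 0.0060; 9.34%). The family difference of Prelp held in all 14 alternatives, with an adjusted p from 1.1e-08 to 0.0092. The next smallest adjusted p among the other 9 members was 0.15, for Ogn.

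The recombinant strains can be set beside their parents for Prelp. The parents of the BXD set averaged 9.77 (C57BL/6J) and 10.47 (DBA/2J), and 30 of the 36 BXD strain means lay between them, 5 above and 1 below. In the AXB/BXA set both parents were low, at 9.77 (C57BL/6J) and 9.74 (A/J), yet 20 of the 21 strain means lay above both and 1 below. Of the 9 CXB strains, 6 lay between C57BL/6J and BALB/cByJ (10.15) and 3 below, and of the 4 BXH strains, 3 lay between C57BL/6J and C3H/HeJ (10.04). For Ogn, 29 of the 36 BXD strain means lay above both parents (9.19 and 9.27). These counts compare strain means of 1 to 8 arrays and were not tested.

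Across strains most members rose and fell together, while r was at most 0.279 in the pairs with Prelp. Of the 45 pairs of members, 38 correlated positively and 1 negatively over the 101 strain means at an adjusted p under 0.05 (permutation tests of Pearson's r with 100000 resamples, adjusted over the pairs; the smallest p they can give is 1e-05), and 6 passed in neither direction. Without Prelp, 34 of 36 pairs were positive; of the 9 pairs with Prelp, 4 were positive (Bgn, Fmod, Omd and Hspg2) and 1 was negative. The strains are related, which these p-values do not account for, and strain means of all genes share each array's tissue makeup. The share of pairs of other genes that would pass is not given here, so these counts have no background. The tightest group was Bgn, Vcan, Ogn and Hspg2: Ogn with Vcan (r = 0.883, rho = 0.862), Bgn with Hspg2 (0.874, rho = 0.871), Bgn with Vcan (0.861, rho = 0.846) and Bgn with Ogn (0.853, rho = 0.865), each with an adjusted p of 1.9e-05. Without the 2 strains farthest from the median of the first gene these were 0.865, 0.878, 0.845 and 0.833. Within families, Bgn and Ogn gave 0.900 in BXD, 0.852 in AXB/BXA, 0.896 in CXB and 0.792 in classical strains.

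Dcn kept other company. Its closest members were Lum (r = 0.726, rho = 0.713, adjusted p = 1.9e-05; 0.686 without the 2 farthest strains), its neighbour on chromosome 10, then Fmod (0.609, rho = 0.524) and Aspn (0.597, rho = 0.576), while with Bgn it gave 0.282 (rho = 0.256, adjusted p = 0.0056) and with Hspg2 0.132 (rho = 0.131, adjusted p = 0.20). Dcn with Lum was 0.801 in BXD, 0.737 in AXB/BXA, 0.859 in CXB and 0.708 in classical strains, whereas Dcn with Bgn was -0.392 in CXB and 0.180 in classical strains. The 5 pairs of neighbours in the genome had r from 0.269 (Fmod with Prelp) to 0.747 (Omd with Ogn), with a median of 0.458 and the other pairs had a median of 0.462, a difference that was not tested. Prelp was at most 0.279 (with Hspg2, rho = 0.316, adjusted p = 0.0063) and was negative with Aspn (-0.306, rho = -0.323, adjusted p = 0.0026; -0.593 in classical strains). Among mice of the same strain (360 mice, strain means removed) 44 of the 45 pairs had the same sign as among strains, for example 0.819 for Bgn with Ogn and 0.696 for Dcn with Lum.

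Most members followed the smooth muscle score, the fibroblast score or both. Of 100 pairs of a member and a marker list, 46 passed an adjusted p of 0.05. The share of all genes that would pass with the same scores is not given here, so this count is not read as a trait of the members. The smooth muscle score followed Bgn (r = 0.907, rho = 0.916), Vcan (0.889, rho = 0.900), Hspg2 (0.830, rho = 0.811) and Ogn (0.797, rho = 0.831), each with an adjusted p of 6.2e-05, while Dcn (0.184, rho = 0.224, adjusted p = 0.12) and Prelp (0.030, rho = 0.032, adjusted p = 0.86) did not pass. Without the arrays low in smooth muscle markers, Dcn passed with r = 0.29 (adjusted p = 0.020). Aspn did not pass without them (0.07, adjusted p = 0.64). Over all arrays, Lum (0.315), Fmod (0.356), Omd (0.378) and Aspn (0.344) also followed the smooth muscle score, with lower r. For Bgn this r was 0.925 in BXD, 0.933 in AXB/BXA, 0.889 in CXB and 0.886 in classical strains, and it was 0.900 without the 2 farthest strains. The fibroblast score followed Dcn (0.787, rho = 0.761), Lum (0.736, rho = 0.720), Fmod (0.624, rho = 0.574) and Omd (0.613, rho = 0.555), and also Ogn (0.556), Vcan (0.391), Aspn (0.391) and Bgn (0.344). For Dcn it was 0.796 in BXD, 0.917 in AXB/BXA, 0.645 in CXB and 0.775 in classical strains. The endothelial score followed Hspg2 (0.801, rho = 0.804) and Bgn (0.728, rho = 0.741), and also Ogn (0.472), Vcan (0.472) and Fmod (0.299). Without the arrays low in smooth muscle markers, Vcan no longer passed with the endothelial score (0.19, adjusted p = 0.15). Prelp followed the adipocyte score (0.428, rho = 0.410), the endothelial score (0.400, rho = 0.380) and, inversely, the striated muscle score (-0.419, rho = -0.373). With the adipocyte score Prelp was 0.116 in BXD and -0.144 in AXB/BXA, so that relation did not hold within those families, and in classical strains it was 0.602. All other members but Omd (-0.079) passed with a negative r with the adipocyte score, from -0.229 for Fmod to -0.486 for Vcan. Without the arrays low in smooth muscle markers, Bgn, Fmod, Ogn and Hspg2 no longer passed there. Fmod (-0.235) and Omd (-0.291) were also inverse to the striated muscle score. On the 103 arrays low in smooth muscle markers the median of Vcan was 4.25, against 5.62 on the other 263, that of Bgn 9.67 against 10.81, and that of Prelp 10.10 against 10.14.

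**Figure D3:**
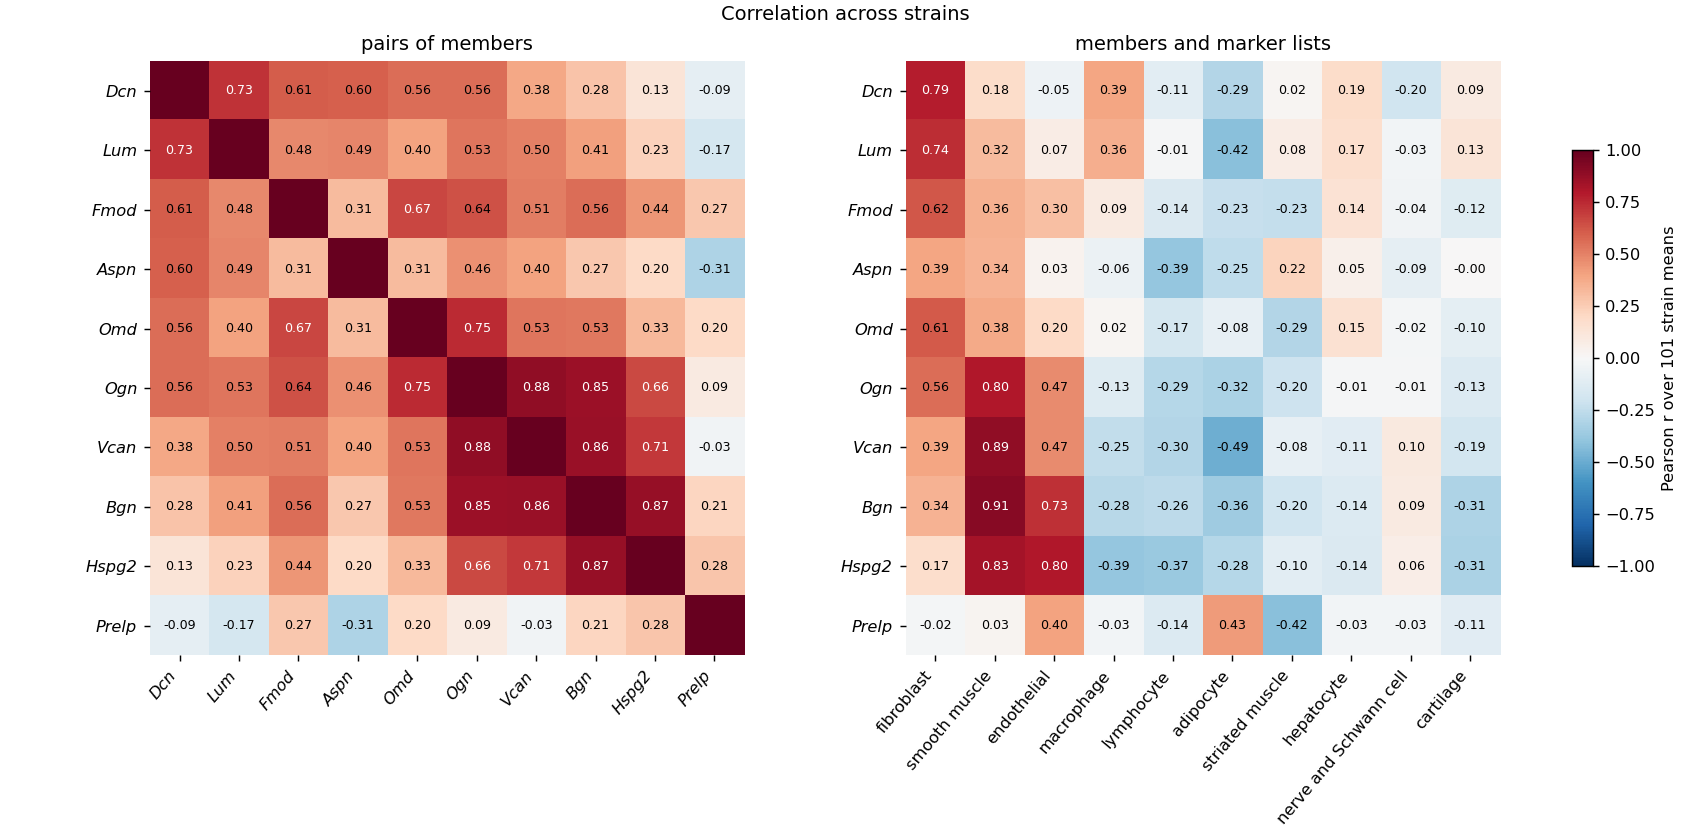
Pearson correlation over 101 strain means between the members (left) and between members and the mean z-score of each marker list (right); red is positive and blue negative. Bgn, Vcan, Ogn and Hspg2 form a block that also follows the smooth muscle markers, Dcn, Lum and Fmod follow the fibroblast markers, and Prelp is pale against most members.

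With the fibroblast and smooth muscle scores taken out of every strain mean, 24 pairs passed the threshold and only 15 of them were positive. Bgn with Hspg2 kept 0.535 (adjusted p = 7.5e-05), Omd with Ogn 0.642 (7.5e-05) and Dcn with Lum 0.326 (0.0041), but Bgn with Vcan was -0.087 (0.45) and Bgn with Ogn 0.168 (0.14). Prelp, unrelated to either score, then correlated with Bgn at 0.544 (7.5e-05) and with Hspg2 at 0.464 (7.5e-05). With both scores as covariates in the test among strains, all 10 members still passed (69.8% of all probe sets did), but F fell from 3.41 to 1.52 for Vcan, from 2.91 to 1.67 for Ogn, from 4.53 to 2.87 for Bgn and from 3.86 to 2.14 for Hspg2, while it was 4.54 and 4.56 for Prelp. The marker genes and the members were read in RNA of the same bulk tissue, so makeup and regulation cannot be told apart in these fits.

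**Figure D4:**
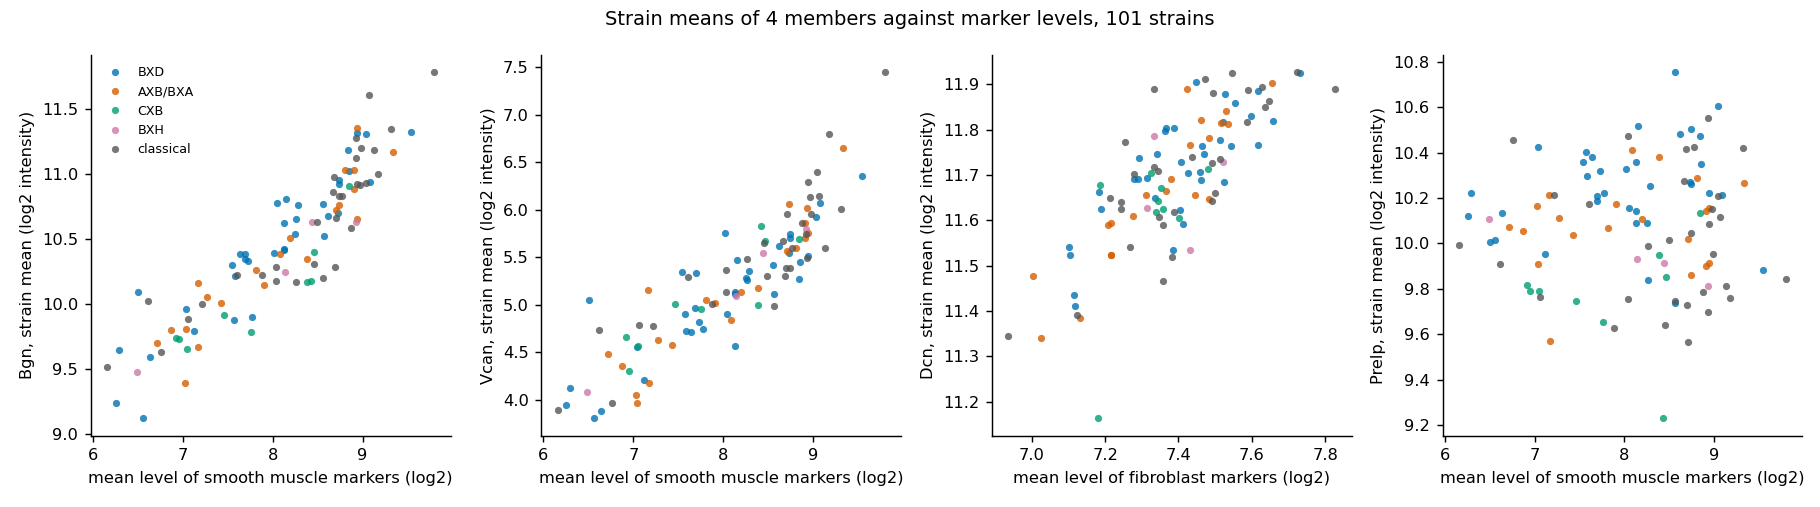
Strain means (log2 intensity) of Bgn, Vcan, Dcn and Prelp against the mean log2 level of smooth muscle markers (fibroblast markers for Dcn) in 101 strains, coloured by family; axes do not start at 0. Bgn and Vcan rise along the smooth muscle level, Dcn rises along the fibroblast level, and Prelp shows no slope.

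For each member the 3 genes with the most similar strain means were taken from 17096 others. Those nearest to Bgn were Pdlim7 (r = 0.948), Emilin1 (0.947), an elastic fibre protein, and Zyx (0.943), the focal adhesion protein zyxin. Those of Vcan were Gpc6 (0.929), Col4a5 (0.921) and Cpe (0.919), those of Ogn were Itgbl1 (0.930), Fbln5 (0.928), the elastic fibre protein fibulin-5, and Gpc6 (0.899), and those of Hspg2 were Myadm (0.894), Pdgfrb (0.885), a receptor of mural cells, and Glg1 (0.884). Dcn was nearest to Plxdc2 (0.841), Tgfbi (0.812) and Serping1 (0.787), and Lum to Col14a1 (0.764), Tgfbi (0.763) and Col3a1 (0.762), which encodes the fibrillar collagen of type III. Fmod was nearest to Bmp4 (0.728), Timp2 (0.724) and Sfrp2 (0.713), and Omd to Ogn itself (0.747), Itgbl1 (0.706) and Reck (0.704). Aspn was nearest to Gulp1 (0.752), Sfr1 (0.748) and Myl12a (0.655), and Prelp to Trp53inp2 (0.754), Mark2 (0.735) and Hipk2 (0.728), none of them a matrix gene. Likeness here is a description over 101 strain means.

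In the rest of the proteoglycan pathway, the share of genes that varied among strains ran from 78.8% to 100% over 4 lists. Of all 17097 genes, 80.6% passed the F test (median share among strains 20.8%). So did 26 of 33 other matrix and cell surface proteoglycans (median 30.2%) and 38 of 45 genes of glycosaminoglycan chain synthesis (24.9%). Of cleavage and turnover genes 27 of 27 passed (31.5%), and of collagens and other matrix partners 28 of 30 (39.1%). No share over genes as bright as those of the lists is given here, so these shares are not read as a trait of the pathway. The most strain-bound of the other proteoglycans was Ncan, the brain proteoglycan neurocan, with 84.8% of variance among strains, strain means from 2.87 to 7.24 and a difference of 2.60 in DBA/2J from C57BL/6J (adjusted p = 7.8e-05). It was followed by the basement membrane genes Agrn (47.1%) and Col18a1 (46.8%) and the syndecan gene Sdc4 (47.0%). Among enzymes that build the chains, the chondroitin 4-sulfotransferase gene Chst11 had 61.3% and differed by -0.87 in A/J from C57BL/6J (adjusted p = 0.00078). Ust (57.6%), Extl3 (52.0%) and Extl2 (50.2%) followed. The turnover genes with the largest shares were the lysosomal genes Gusb (51.2%) and Ids (44.8%), the gelatinase gene Mmp2 (47.2%) and Adamts9 (44.7%), which encodes a versican-cleaving protease. Of the matrix partners, Col6a2 (55.6%), Col5a2 (55.5%), Col6a1 (52.7%) and Tnc (51.7%) led. In A/J, 5 of the 30 matrix partners, 3 of the 33 other proteoglycans, 4 of the 45 chain synthesis genes and 2 of the 27 turnover genes were lower than in C57BL/6J, beside 899 of all 17097 genes, and 1 gene of the lists was higher, beside 180. In C3H/HeJ, 5 matrix partners, 5 other proteoglycans, 1 chain synthesis gene and 3 turnover genes were higher, beside 753 of all genes, and 2, 0, 3 and 3 were lower, beside 1216. In BALB/cJ, 3 matrix partners, 3 other proteoglycans and 1 turnover gene were higher (342 of all genes), and 1 matrix partner, 2 other proteoglycans and 2 chain synthesis genes lower (1166). In DBA/2J, 3 other proteoglycans and 2 chain synthesis genes were higher (298 of all genes), and no gene of the 4 lists was lower (415).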

How the data were processed

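RNA of single aortas was measured on Affymetrix arrays, which the labels name HT_MG-430A and the paper HT-MG_430 PM. Per the submitters' processing notes the authors used GCOS and then RMA, without versions, so the deposited values are log2 intensities, and a genome build is not given in the sources used here. RMA fits each probe set over all arrays and levels the arrays, which hides differences in total RNA. All 366 columns were matched to samples by their labels, no pair of arrays was identical, and no label gives a batch or date. Replicate numbers only name the arrays of a strain, and nothing says that mice of a strain came from separate litters.

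Strains, families and progenitors were compared with limma 3.58.1 in R 4.3.3 on all 45141 probe sets with Benjamini-Hochberg adjustment at 0.05: an F test among 95 strains, contrasts of 26 progenitor arrays, and an F test of 101 strain means over 5 families. Correlations were computed in Python 3.11.15 with scipy 1.17.1 and numpy 2.4.6. Of the probe sets, 28898 have 1 gene symbol, 551 several and 15692 none, and only those with 1 were named. Scores are mean z-scores of marker lists. The number of arrays per strain (median 4, highest 8) limits precision. On simulated data of 45141 probe sets the F test among strains recovered 100% of 200 changed probe sets, and 7.83% of its calls were false. The changed probe sets had means above the median and an SD among strains equal to the SD among mice, so weaker strain effects were not simulated. For the DBA/2J contrast, 82.5% of 200 changes of 1 log2 unit were recovered, with 3.51% of calls false, and smaller differences were not simulated. Sequences and positions are from RefSeq on GRCm38.p6.

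The members and lists were chosen with earlier results of these data known. Named were all 10 members, for each the 3 highest and 3 lowest strains with 3 or more arrays and the 3 most similar genes, and from each pathway list the 4 genes most variable among strains by intraclass correlation. Alternatives were other moderation, array weights, renormalization, brighter probe sets, the mean of a gene's probe sets, marker scores as covariates, a shared spread, strain as a random block, the biweight midcorrelation, and leaving out arrays. Those without arrays high in hepatocyte or low in smooth muscle markers were chosen after seeing the data. So were those with smooth muscle and fibroblast scores, except in the test among all strains and in the pairs of members, where they were planned.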

Additional observations from a re-analysis of the deposited data

Results flagged for a closer look

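Dixon's ratio was applied to 111 groups of 4 to 10 values (arrays of progenitors and of the strains named for a member, and strain means of the BXH and CXB sets), and 6 values lay apart from their group, where chance flags about 1 group in 20. Dcn was 11.95 on a C3H/HeJ array, with the next at 11.65, and 12.0 on a DBA/2J array, with the next at 11.73. Aspn was 5.81 on a C57BL/6J array, with the next at 6.05, and Omd was 4.14 on a BXD75/RwwJ array, the other 3 of which read at most 3.31. Among the 9 CXB strains, CXB11/HiAJ was lowest for both Dcn (11.16, next 11.60) and Fmod (4.80, next 5.30), and it rests on 1 array. In none of these genes was that progenitor, or the CXB set, called in a comparison with C57BL/6J or among families, and the causes were not tested.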

How the results depend on the processing

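The count of 10 members that differ among strains was the same in all alternatives run, and so was the family difference of Prelp. Members called among families numbered 4 with adipocyte, striated muscle, hepatocyte and cartilage covariates (Bgn, Ogn and Hspg2 added), 3 with strain as a random block, and 2 with smooth muscle and fibroblast covariates or without arrays low in smooth muscle markers. With smooth muscle and fibroblast covariates, 8.02% of all probe sets were called among families. Among strains of 1 family, CXB counted 2 with brighter probe sets, 4 with array weights and 2 with the mean of probe sets, BXH 0 after renormalization and 0 with the mean of probe sets, and AXB/BXA 4 and BXD 5 with smooth muscle and fibroblast covariates. Leaving out replicates gave 0 to 1 for BXH, 0 to 2 for CXB, 6 to 10 for AXB/BXA, 6 to 9 for BXD and 8 to 10 for classical strains. For A/J the count was 0 with array weights, 1 with the adipocyte set of covariates, 1 with a shared spread (Dcn kept, Fmod lost at an adjusted p of 0.070) and 0 with smooth muscle and fibroblast covariates, which also gave 0 for C3H/HeJ and 0 for DBA/2J. Of all probe sets, those covariates called 0.886% in A/J, 1.86% in C3H/HeJ and 4.84% in DBA/2J, and the shared spread called 4.94% in A/J. With the mean of probe sets it was 1 for BALB/cJ and 1 for C3H/HeJ, and with brighter probe sets 1 for BALB/cJ. Leaving out arrays gave 0 to 2 for A/J, 0 to 1 for BALB/cJ, 1 to 2 for C3H/HeJ and 1 for DBA/2J. Where no share of all probe sets is printed beside a count of this paragraph, none is given, so that count has no background.

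With the fibroblast and smooth muscle scores taken out, 24 pairs of members passed instead of 39, and r changed sign for Dcn and Bgn (-0.30), Dcn and Hspg2 (-0.23), Lum and Bgn (-0.17), Lum and Fmod (-0.094), Lum and Ogn (-0.17), Lum and Omd (-0.25), Lum and Hspg2 (-0.23), Bgn and Aspn (-0.40), Bgn and Vcan (-0.087), Fmod and Aspn (-0.024), Ogn and Hspg2 (-0.15), Aspn and Omd (-0.028), Aspn and Vcan (-0.017), Aspn and Hspg2 (-0.23), Omd and Hspg2 (-0.067), and Vcan and Hspg2 (-0.26). With their new sign, Dcn with Bgn and Hspg2, Lum with Omd and Hspg2, Aspn with Bgn and Hspg2, and Vcan with Hspg2 passed. The other changed pairs did not pass. Without arrays low in smooth muscle markers r changed sign for Bgn and Aspn (-0.075), for the cartilage score with Bgn (0.077), Ogn (0.28), Aspn (0.25), Vcan (0.31) and Hspg2 (0.01), and for the macrophage score with Vcan (0.052). Of these, only the cartilage score with Ogn, Aspn and Vcan passed (permutation, adjusted p = 0.022, 0.047 and 0.010). Over all arrays Aspn had r = -0.0 with that score. Lum and Hspg2 (0.13), and Aspn with Fmod (0.08), Ogn (0.22), Omd (0.19) and Vcan (0.16), no longer passed without those arrays. The causes were not tested. No paired analysis was possible because the replicate numbers only name the arrays of a strain and mark no shared litter, batch or day. Signal over background limits the dim probe sets, since RMA compresses differences near background.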
